A study of Mus musculus with 32 samples.

Results

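Trp53, which encodes the tumour suppressor p53, and 9 of its known target genes (Cdkn1a, Phlda3, Mdm2, Ccng1, Bax, Zmat3, Trp53inp1, Sesn2 and Eda2r) were followed across RNA libraries from mouse brain. They are 10 of the 24411 genes in an exon count table and were found by gene symbol. The set was assembled because Cdkn1a and Phlda3 had been seen to be higher in sorted microglia of the Sall1 line, so that difference is described here and not tested. All mice were C57BL/6 and carried RPL22-HA, an allele that places an HA tag on a ribosomal protein after Cre recombination, so that ribosome-bound mRNA can be precipitated from the recombined cells. Of the 2 lines, the first carried Sall1-CreER (4 mice, numbered 7, 9, 17 and 21) and the second Cx3cr1-CreER (4 mice, numbered 1 to 4). Sall1 is a transcription factor of microglia, the resident macrophages of the brain, and Cx3cr1 is a chemokine receptor of microglia and other macrophages. Every mouse of both lines received 5 mg of tamoxifen by gavage, 4 times on alternate days, at an age of 4 to 6 weeks, so the design holds no group without tamoxifen or without the tagged ribosome. Each brain gave 4 libraries: anti-HA precipitate of whole-brain homogenate (HA), anti-HA precipitate of sorted microglia (SortIP), sorted microglia (Sort), and homogenate precipitated with a mouse IgG1 control antibody (IgG). That makes 8 groups of 4 libraries, 32 in all.

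p53 is a transcription factor that is held at a low level by the ubiquitin ligase Mdm2 and is stabilised when DNA is damaged or the cell is otherwise stressed. Its targets stop the cell cycle (Cdkn1a, which encodes the cyclin-dependent kinase inhibitor p21), promote cell death (Bax), feed back on p53 (Mdm2, Ccng1) and adjust growth and metabolic signalling (Phlda3, Sesn2). p53 protein is mainly controlled after translation, so the Trp53 mRNA level is not a measure of p53 activity.

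The DNA just before the start sites was read to show what the members have in common apart from their counts. The RefSeq promoter table, on GRCm38.p6 and running from 250 bases before to 50 bases after each start, held 8 of the 10 genes. A p53 half-site, the short element that p53 binds in pairs, was searched on both strands without a mismatch and is given by its name alone. It was present in 8.36% of the 32851 promoters in the table, and in 9.55% of the 27025 genes. Of the 8 members in the table, 5 genes (62.5%) held one: Trp53, Cdkn1a, Mdm2, Ccng1 and Bax. The members were listed as p53 and its known targets, so this share describes the list and is not a result of these data. The first Cdkn1a promoter (chr17:29090729-29090978, plus strand) held 2 half-sites, at 73 to 64 and at 51 to 42 bases before the start, 12 bases apart. It is printed because it is the densest of the set, with the half-sites in capitals. Half-sites with a mismatch were not sought or marked, so the 2 marked ones are not shown to be partners.
Cdkn1a, first promoter: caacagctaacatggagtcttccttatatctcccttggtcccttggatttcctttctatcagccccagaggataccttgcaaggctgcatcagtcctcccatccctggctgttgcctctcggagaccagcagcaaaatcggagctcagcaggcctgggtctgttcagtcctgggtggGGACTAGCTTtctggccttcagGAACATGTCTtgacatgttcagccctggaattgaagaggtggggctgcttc

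A second Cdkn1a promoter (chr17:29093519-29093768) and the Phlda3 promoter (chr1:135765835-135766084, plus strand) held no perfect half-site in the window. The Phlda3 window is printed for contrast, since its gene shares the sorted-cell difference with Cdkn1a. The other 4 are shown as 50 bases around the half-site, again in capitals, 5′ to 3′ along the strand of the gene, to let the half-sites be compared. They lie at chr11:69580264-69580313 (plus strand, Trp53), chr10:117710915-117710964 (minus strand, Mdm2), chr11:40755442-40755491 (minus strand, Ccng1) and chr7:45467070-45467119 (minus strand, Bax).
Phlda3: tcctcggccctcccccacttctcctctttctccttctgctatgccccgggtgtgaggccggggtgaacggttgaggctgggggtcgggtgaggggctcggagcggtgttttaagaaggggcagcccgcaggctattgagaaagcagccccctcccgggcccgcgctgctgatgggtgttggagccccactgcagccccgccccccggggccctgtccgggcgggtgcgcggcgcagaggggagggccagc
Trp53: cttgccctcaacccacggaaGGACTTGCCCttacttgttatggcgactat
Mdm2: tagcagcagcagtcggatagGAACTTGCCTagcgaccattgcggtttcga
Ccng1: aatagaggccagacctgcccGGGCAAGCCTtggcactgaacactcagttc
Bax: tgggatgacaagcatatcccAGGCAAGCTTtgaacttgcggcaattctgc
Sesn2 and Eda2r had no match, and Zmat3 and Trp53inp1 had no entry. A match to these letters is not evidence that p53 binds there.

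Levels are given as CPM, the count of a gene scaled to 1e6 gene counts of its library, in the order of the mouse numbers, that is mice 7, 9, 17 and 21 of the Sall1 line and mice 1, 2, 3 and 4 of the Cx3cr1 line. The libraries held 249881 to 4047465 gene counts each, fewest in Sall1 SortIP (249881 to 980218) and Cx3cr1 HA (286418 to 574671). In Cx3cr1 HA a count of 0 allows a level of up to 10.5 CPM in the shallowest library (286418 counts) and up to 5.22 CPM in the deepest (574671 counts), counting error only. The mice were separate animals, and the 4 libraries of a brain share that animal. For all 8 sorted libraries of the Cx3cr1 line, the GEO title and the antibody label go against the description of the sample and the name of the count column: one calls Sort what the other calls SortIP. The groups follow the titles. For the members, the values by description are given beside the comparisons of sorted libraries, and other values of sorted Cx3cr1 libraries are by title unless said otherwise. Measured levels differed between the title groups: 15 microglial marker genes summed to 7.61% to 8.28% of gene counts in Sall1 SortIP and 5.89% to 6.54% in Sall1 Sort, against 5.77% to 6.56% in Cx3cr1 libraries titled SortIP and 7.64% to 8.40% in those titled Sort. Mdm4, a p53-binding relative of Mdm2, averaged 48.4 ± 5.70 CPM in Sall1 SortIP and 141 ± 17.3 CPM in Sall1 Sort, against 132 ± 12.5 CPM in Cx3cr1 SortIP and 43.4 ± 16.7 CPM in Cx3cr1 Sort by title (SD, n = 4 each). On both measures each titled Cx3cr1 group lay nearer to the opposite preparation of the Sall1 line than to its own.

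Cell markers were checked in each preparation. All 15 microglial markers had counts in every group. Their sum was 0.503% to 0.616% of gene counts in Sall1 HA and 7.10% to 8.42% in Cx3cr1 HA, while Sall1 IgG held 0.0855% to 0.113% and Cx3cr1 IgG 0.105% to 0.138%. Markers of astrocytes (10 genes) summed to 0.858% to 1.10% in Sall1 HA and 0.0747% to 0.0961% in Cx3cr1 HA, and markers of oligodendrocytes (10 genes) to 1.04% to 1.27% in Sall1 HA and 0.151% to 0.220% in Cx3cr1 HA. The HA precipitate of the Sall1 line was thus rich in markers of other glia, also above its own IgG libraries (0.336% to 0.355% for astrocytes, 0.447% to 0.572% for oligodendrocytes). In the sorted libraries of either line, astrocyte markers stayed at or under 0.0456% and neuronal markers at or under 0.0308%.

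Cdkn1a (NM_001111099, mm9 chr17:29227924-29237667, plus strand, 1938 bases of exon) had 464, 677, 484 and 509 CPM in Sall1 Sort, against 50.8, 27.4, 63.3 and 36.9 CPM in Cx3cr1 Sort. In SortIP it had 580, 690, 463 and 716 CPM in the Sall1 line, against 90.7, 49.5, 70.2 and 31.3 CPM in the Cx3cr1 line. Every sorted library of the Sall1 line lay above every sorted library of the Cx3cr1 line by a wide gap, in both preparations. The means were 534 ± 97.7 CPM in Sall1 Sort and 44.6 ± 15.7 CPM in Cx3cr1 Sort, a log2 fold change of 3.45 ± 0.22 (SE), and 612 ± 116 CPM in Sall1 SortIP and 60.4 ± 25.7 CPM in Cx3cr1 SortIP, a log2 fold change of 3.48 ± 0.30 (SD of means, n = 4 each). With the Cx3cr1 groups taken from the descriptions the log2 fold changes were 3.13 (Sort) and 3.79 (SortIP). With both sorted libraries of a mouse summed, Cdkn1a had 511, 683, 476 and 549 CPM in Sall1 mice, against 76.7, 36.9, 67.7 and 33.2 CPM in Cx3cr1 mice. Because the 2 libraries of a mouse are in this sum, it does not depend on which of them was precipitated.

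**Figure D1:**
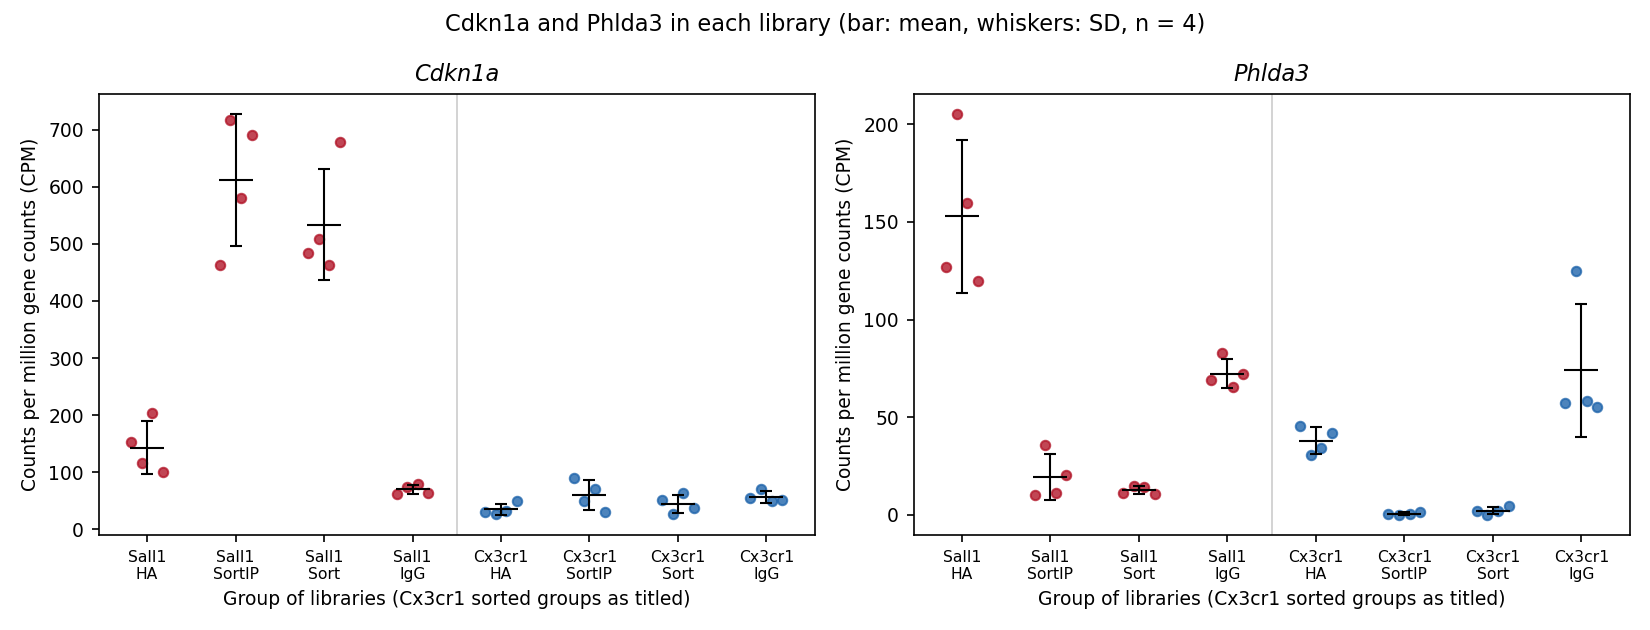
Levels of Cdkn1a and Phlda3 in every library. The vertical axis gives CPM for each of the 8 groups, points are libraries, bars are means and whiskers SD (n = 4); groups of sorted Cx3cr1 libraries follow the titles. Cdkn1a is highest in the Sall1 SortIP (612 CPM) and Sort (534 CPM) groups, whereas Phlda3 is highest in Sall1 HA (153 CPM).

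Phlda3 (NM_013750, mm9 chr1:137662662-137665711, plus strand, 1463 bases), whose product opposes the kinase Akt at the membrane, was far lower than Cdkn1a in sorted cells but also separated the lines. It had 14.5, 10.8, 11.01 and 14.7 CPM in Sall1 Sort, against 2.21, 0, 1.89 and 4.43 CPM in Cx3cr1 Sort. In SortIP it had 11.4, 20.4, 10.2 and 36.0 CPM in the Sall1 line, against 0.597, 0, 0.553 and 1.57 CPM in the Cx3cr1 line. These levels rest on few counts: 11, 14, 16 and 15 counts in Sall1 Sort and 6, 18, 10 and 9 in Sall1 SortIP, against 2, 0, 2 and 3 counts in Cx3cr1 Sort and 1, 0, 1 and 2 in Cx3cr1 SortIP. All 4 Sall1 libraries lay above all 4 Cx3cr1 libraries in each preparation. The log2 fold change was 2.51 ± 0.51 for Sort by title and 3.95 with groups by description. Phlda3 was too low in SortIP for the count filter of the fit.

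The other members differed less between the lines' sorted cells, and here the choice between title and description matters. Ccng1 had 65.7, 51.5, 47.5 and 54.8 CPM in Sall1 Sort, against 15.5, 28.4, 24.6 and 22.1 CPM in Cx3cr1 Sort, and 36.1, 29.5, 39.8 and 32.02 CPM in Sall1 SortIP, against 43.6, 45.5, 40.9 and 32.9 CPM in Cx3cr1 SortIP. Bax had 194, 269, 216 and 261 CPM in Sall1 Sort, against 131, 137, 110 and 105 CPM in Cx3cr1 Sort, and 171, 201, 181 and 144 CPM in Sall1 SortIP, against 155, 134, 182 and 163 CPM in Cx3cr1 SortIP. Mdm2 had 145, 138, 138 and 120 CPM in Sall1 Sort, against 103, 96.4, 75.5 and 73.8 CPM in Cx3cr1 Sort, and 89.3, 105, 87.7 and 84.0 CPM in Sall1 SortIP, against 120, 133, 102 and 114 CPM in Cx3cr1 SortIP. All 3 were apart between the lines in Sort and overlapped in SortIP. Of the 8688 genes compared in Sort, 15.8% had all 4 Sall1 libraries above all 4 Cx3cr1 libraries. As well as Cdkn1a and Phlda3, on which the set was chosen, Mdm2, Ccng1 and Bax did so, with log2 fold changes of 0.52 ± 0.15, 1.14 ± 0.21 and 0.86 ± 0.14. In SortIP by title, where 4.49% of genes had all 4 above, those 3 overlapped, with log2 fold changes of -0.16 ± 0.18 (Mdm2), -0.06 ± 0.22 (Ccng1) and 0.32 ± 0.17 (Bax). By description, Ccng1 and Bax lay above in both preparations, as did 3.41% of genes in Sort and 2.68% in SortIP. So did Cdkn1a and Phlda3, on which the set was chosen, though Phlda3 did not pass the count filter in SortIP. The log2 fold changes of Ccng1 were then 0.44 (Sort) and 0.64 (SortIP), and those of Bax 0.58 and 0.59. Ccng1 (log2 fold change 0.52) and Bax (0.59) also lay above in the sums per mouse, as did 4.14% of genes, while Mdm2 overlapped between the lines. Cdkn1a (3.36) and Phlda3 (3.496) lay above there too, a description since the set was chosen on them. Zmat3, Trp53inp1 and Trp53 overlapped between the lines in both preparations by either grouping.

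The lines also differed in their driver genes. The Cx3cr1 gene itself averaged 5419 ± 912 CPM in Sall1 Sort, compared with 2612 ± 350 CPM in the Cx3cr1 libraries titled Sort and 3444 ± 1168 CPM in those titled SortIP. The Sall1 gene averaged 271 ± 38.9 CPM in Sall1 Sort, compared with 412 ± 61.6 CPM in the Cx3cr1 libraries titled Sort and 474 ± 33.2 CPM in those titled SortIP. The mean of each gene was lower in the line whose Cre driver is named after it. Immediate early genes, which respond quickly to the handling of cells, summed to 0.451% to 1.38% of gene counts in Sall1 Sort, against 0.372% to 0.838% in Cx3cr1 Sort, and to 0.277% to 1.13% in Sall1 SortIP, against 0.649% to 1.58% in Cx3cr1 SortIP. By description the Cx3cr1 ranges change places, to 0.649% to 1.58% in Sort and 0.372% to 0.838% in SortIP. Border macrophage markers averaged 0.0731% in Sall1 Sort, compared with 0.0392% in Cx3cr1 Sort by title and 0.0376% by description. The part of any of these in the Cdkn1a and Phlda3 levels was not tested.

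In homogenate the question was whether the tagged-ribosome fraction carried the p53 genes above the control precipitate, and whether it did so to a like extent in both lines. In the Sall1 line Cdkn1a had 204, 101, 153 and 116 CPM in HA, against 79.5, 63.5, 61.9 and 74.8 CPM in IgG. Phlda3 had 160, 120, 127 and 205 CPM in Sall1 HA, compared with 65.3, 72.1, 69.3 and 82.7 CPM in Sall1 IgG. For each gene every HA library exceeded every IgG library, as for 22.3% of all genes, and both transcripts rose in the Sall1 HA precipitate. The log2 fold change was 1.46 ± 0.21 for Cdkn1a (adjusted p = 8.32e-06) and 1.48 ± 0.19 for Phlda3 (adjusted p = 1.82e-06). In this comparison 71.3% of the 11545 genes tested were called in either direction.

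The Cx3cr1 line did not show this. Cdkn1a had 31.3, 27.5, 32.1 and 48.9 CPM in Cx3cr1 HA, against 55.0, 71.2, 48.9 and 51.7 CPM in Cx3cr1 IgG. Phlda3 had 45.2, 30.6, 34.4 and 41.9 CPM in Cx3cr1 HA, against 57.2, 125, 58.3 and 55.1 CPM in Cx3cr1 IgG. These Cx3cr1 HA levels came from 18, 9, 14 and 14 counts for Cdkn1a and 26, 10, 15 and 12 counts for Phlda3. Every HA library lay below every IgG library for both genes, as for 41.6% of all genes. For Cdkn1a the groups nearly touched, at 48.88 CPM in HA mouse 4 (14 counts) and 48.89 CPM in IgG mouse 3. Neither gene passed the test after scaling by trimmed means (log2 fold change -0.32 ± 0.26, adjusted p = 0.292 for Cdkn1a; -0.55 ± 0.31, adjusted p = 0.137 for Phlda3), among 64.5% of 10021 genes called. With library totals alone, which moves the median of all genes in this comparison by -0.40, Cdkn1a (-0.72, adjusted p = 0.0231), Phlda3 (-0.95, adjusted p = 0.0135) and Mdm2 (-0.67, adjusted p = 0.0275) passed as lower in HA. Phlda3 in IgG mouse 2 (125 CPM) stood apart from the other 3 (55.1 to 58.3 CPM).

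The difference between the lines in this HA over IgG change was tested as an interaction, in which 32.2% of 12308 genes were called and 18.5% had the higher HA over IgG change in the Sall1 line. It was 1.74 ± 0.35 on the log2 scale for Cdkn1a (adjusted p = 3.4e-04) and 1.99 ± 0.38 for Phlda3 (adjusted p = 2.73e-04). Directly compared, Cdkn1a averaged 143 ± 45.8 CPM in Sall1 HA and 35.0 ± 9.49 CPM in Cx3cr1 HA (log2 fold change 1.87 ± 0.27, adjusted p = 1.69e-06). Phlda3 averaged 153 ± 39.2 CPM in Sall1 HA and 38.0 ± 6.72 CPM in Cx3cr1 HA (log2 fold change 1.80 ± 0.24, adjusted p = 6.38e-07). For both genes all 4 Sall1 HA libraries lay above all 4 Cx3cr1 HA libraries, as for 31.5% of all genes. With any 1 of the 8 libraries left out, the log2 fold change stayed within 1.67 to 2.06 for Cdkn1a and 1.64 to 1.94 for Phlda3. Of all genes tested between the HA precipitates, 27.2% were called higher and 25.7% lower in the Sall1 line, 52.9% of 9092 in all.

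The same comparison moved whole sets of cell markers. Between Sall1 HA and Cx3cr1 HA, 10 of 10 astrocyte, 10 of 10 oligodendrocyte and 7 of 7 tested oligodendrocyte precursor markers were called higher, and 15 of 15 microglial and 8 of 8 border macrophage markers lower. The part of these cell types in the Cdkn1a and Phlda3 values was not tested, and in bulk libraries a change in the number of cells of a type and a change in RNA per cell cannot be told apart. In the control precipitate 1 of 11593 genes (0.00863%) was called between the lines. Of the 7 members tested in IgG none was called by edgeR or had an unadjusted p under 0.05, DESeq2 called none of them either, and Cdkn1a averaged 69.9 ± 8.59 CPM in Sall1 IgG and 56.7 ± 10.0 CPM in Cx3cr1 IgG (log2 fold change 0.27 ± 0.19, unadjusted p = 0.183).

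**Figure D2:**
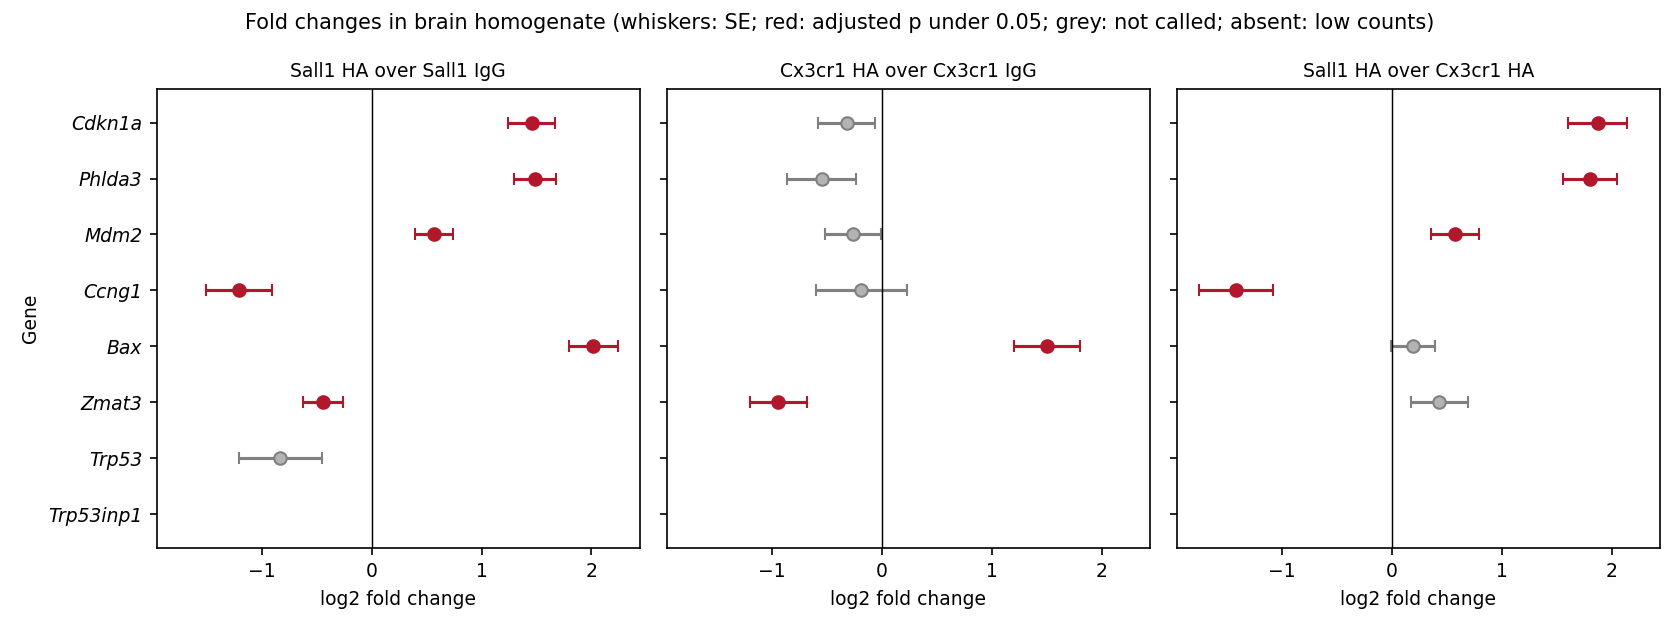
Log2 fold changes of the members in brain homogenate, with SE whiskers, for Sall1 HA over Sall1 IgG, Cx3cr1 HA over Cx3cr1 IgG and Sall1 HA over Cx3cr1 HA; filled red points passed an adjusted p of 0.05. Cdkn1a and Phlda3 lie at 1.46 and 1.48 in the Sall1 panel and below 0 in the Cx3cr1 panel, while Bax lies above 1 in both.

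Mdm2 (NM_010786, mm9 chr10:117125931-117147814, minus strand, 3085 bases) encodes the ubiquitin ligase that removes p53 and is itself induced by it. It had 64.4, 69.4, 60.5 and 74.0 CPM in Sall1 HA, compared with 41.8, 48.9, 29.8 and 38.4 CPM in Cx3cr1 HA. The Cx3cr1 HA levels came from 24, 16, 13 and 11 counts. All 4 Sall1 HA libraries lay above all 4 Cx3cr1 HA libraries, as for 31.5% of all genes. Mdm2 was called higher in Sall1 HA (log2 fold change 0.58 ± 0.22, adjusted p = 0.0314), as were 27.2% of all genes tested. Without mouse 1 (0.62, adjusted p = 0.0527) or mouse 3 (0.48, adjusted p = 0.0997) of the Cx3cr1 HA libraries the call was lost. Over IgG, Mdm2 rose in Sall1 HA (67.1 ± 5.90 CPM, against 61.3 ± 11.3 CPM in Sall1 IgG; log2 fold change 0.57 ± 0.18, adjusted p = 0.00794). The raw levels of those groups overlapped, and with library totals alone the log2 fold change was 0.16 (adjusted p = 0.419). The interaction was 0.78 ± 0.29 (adjusted p = 0.0441) and missed the threshold with the mouse as a block (0.77, adjusted p = 0.0573) and in 12 of 16 fits that left out a library. It was kept without mouse 2 of Cx3cr1 HA, mouse 2 of Cx3cr1 IgG, mouse 17 of Sall1 HA or mouse 7 of Sall1 IgG, and the adjusted p ranged from 0.0192 to 0.111 over the 16.

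Ccng1 (NM_009831, mm9 chr11:40562054-40568788, minus strand, 3480 bases) encodes cyclin G1, a p53-induced partner of a phosphatase that acts on Mdm2. In Sall1 HA it had 8.97, 8.996, 7.40 and 8.59 CPM, against 27.8, 18.4, 16.1 and 14.0 CPM in Cx3cr1 HA. Ccng1 was lower in every Sall1 HA library, as for 18.8% of all genes and in the opposite direction to Cdkn1a, with a log2 fold change of -1.42 ± 0.33 (adjusted p = 8.47e-04). The Cx3cr1 HA levels came from 16, 6, 7 and 4 counts. With 1 library left out, Ccng1 passed the count filter in only 4 of 8 fits, in which the call was kept (-1.50 to -1.11, adjusted p = 0.00138 to 0.0318). Against IgG it fell in Sall1 HA (8.49 ± 0.748 CPM, against 26.5 ± 8.29 CPM in Sall1 IgG; log2 fold change -1.21 ± 0.30, adjusted p = 0.00155). In Cx3cr1 HA over IgG the log2 fold change was -0.19 (adjusted p = 0.706). The interaction was -1.09 (adjusted p = 0.124), and -1.36 (adjusted p = 0.0299) without mouse 9 of Sall1 IgG, whose 14.1 CPM was under the 29.8 to 31.5 CPM of the other 3.

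Bax (NM_007527, mm9 chr7:52717065-52722268, minus strand, 861 bases) encodes a protein that opens the mitochondrial outer membrane in cell death. It had 222, 230, 206 and 282 CPM in Sall1 HA, compared with 34.1, 105, 74.9 and 83.8 CPM in Sall1 IgG, and 209, 251, 126 and 133 CPM in Cx3cr1 HA, against 78.2, 136, 53.8 and 68.6 CPM in Cx3cr1 IgG. It rose over IgG in both lines, with log2 fold changes of 2.02 ± 0.22 in the Sall1 line (adjusted p = 3.5e-07) and 1.504 ± 0.30 in the Cx3cr1 line (adjusted p = 6.37e-04). The HA libraries of the lines overlapped (log2 fold change 0.20 ± 0.20, adjusted p = 0.427), and the interaction was 0.49 (adjusted p = 0.416). Bax has the shortest exon length of the 10 members. Across genes, the HA over IgG change fell with exon length (Spearman's rho -0.53 in the Sall1 line over 11545 genes and -0.37 in the Cx3cr1 line over 10021 genes, a description since genes are not independent). With a length trend taken out in the fit, the sign of Bax between the HA precipitates turned to -0.21 (adjusted p = 0.379).

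Zmat3 (NM_009517, mm9 chr3:32233716-32264587, minus strand) encodes an RNA-binding zinc finger protein and has the longest exon length, 7774 bases. It shares 177 bases with the transcript 4930429B21Rik on the other strand, and since the use of strand in the counting is not given, the reads there cannot be assigned. It had 38.0, 38.6, 39.9 and 32.7 CPM in Sall1 HA, compared with 76.7, 60.0, 56.9 and 77.6 CPM in Sall1 IgG, and 20.9, 21.4, 27.5 and 27.9 CPM in Cx3cr1 HA, against 75.0, 59.9, 49.3 and 62.1 CPM in Cx3cr1 IgG. Zmat3 was below IgG in every HA library of both lines, as were 41.8% of genes in the Sall1 line, and fell in both tests, with log2 fold changes of -0.44 ± 0.18 in the Sall1 line (adjusted p = 0.0394) and -0.94 ± 0.26 in the Cx3cr1 line (adjusted p = 0.00528). The Sall1 call was lost with the mouse as a block (-0.44, adjusted p = 0.0523) and in 6 of 8 fits that left out a library (it was kept without mouse 9 or 17 of Sall1 IgG). With both the block and a length trend the sign turned, to 0.93 (adjusted p = 2.34e-04) in the Sall1 line and 0.27 (adjusted p = 0.473) in the Cx3cr1 line. Between the HA precipitates all 4 Sall1 libraries lay above, as for 31.5% of all genes, but the log2 fold change of 0.43 ± 0.26 did not pass the test (adjusted p = 0.171). It did with library totals alone (0.62, adjusted p = 0.0454).

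Trp53 (NM_001127233, mm9 chr11:69393861-69405375, plus strand, 1855 bases) was rare in homogenate. It had 2.64, 4.28, 2.88 and 2.97 CPM in Sall1 HA, compared with 2.84, 6.67, 8.70 and 10.2 CPM in Sall1 IgG (log2 fold change -0.83 ± 0.38, adjusted p = 0.0558). It passed without mouse 7 (-0.98, adjusted p = 0.0225) or mouse 9 (-0.98, adjusted p = 0.0338) of Sall1 IgG and with library totals alone (-1.24, adjusted p = 0.00614). In Cx3cr1 HA it had 3.48, 6.12, 11.5 and 0 CPM from 2, 2, 5 and 0 counts, too few for the fit. Trp53inp1 (NM_001199105, mm9 chr4:11083588-11101524, plus strand, 5423 bases), whose product promotes p53 activity and autophagy, had 1, 0, 1 and 1 counts in Sall1 HA and 1, 1, 0 and 0 counts in Cx3cr1 HA. Sesn2 (NM_144907, mm9 chr4:132048722-132066371, minus strand), which encodes a stress-induced inhibitor of the growth kinase complex mTORC1, had 104 counts over all libraries. Its level was at most 10.2 CPM in any library, and it did not pass the count filter in any comparison. It had 1.06, 0, 1.23 and 0.330 CPM in Sall1 HA, compared with 1.90, 10.2, 5.10 and 4.00 CPM in Sall1 SortIP. All 4 HA libraries lay below all 4 SortIP libraries, as for 36.3% of the genes fitted there, and the 6 counts in HA and 16 in SortIP give a ratio of 0.102, with a counting interval of 0.0327 to 0.275. In the other comparisons its groups overlapped. Eda2r (NM_175540, mm9 chrX:94529180-94572548, minus strand), a receptor of the tumour necrosis factor family, had 1 count in 1 of the 32 libraries, an IgG library of Cx3cr1 mouse 3. Eda2r cannot be compared between groups at this depth.

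**Figure D3:**
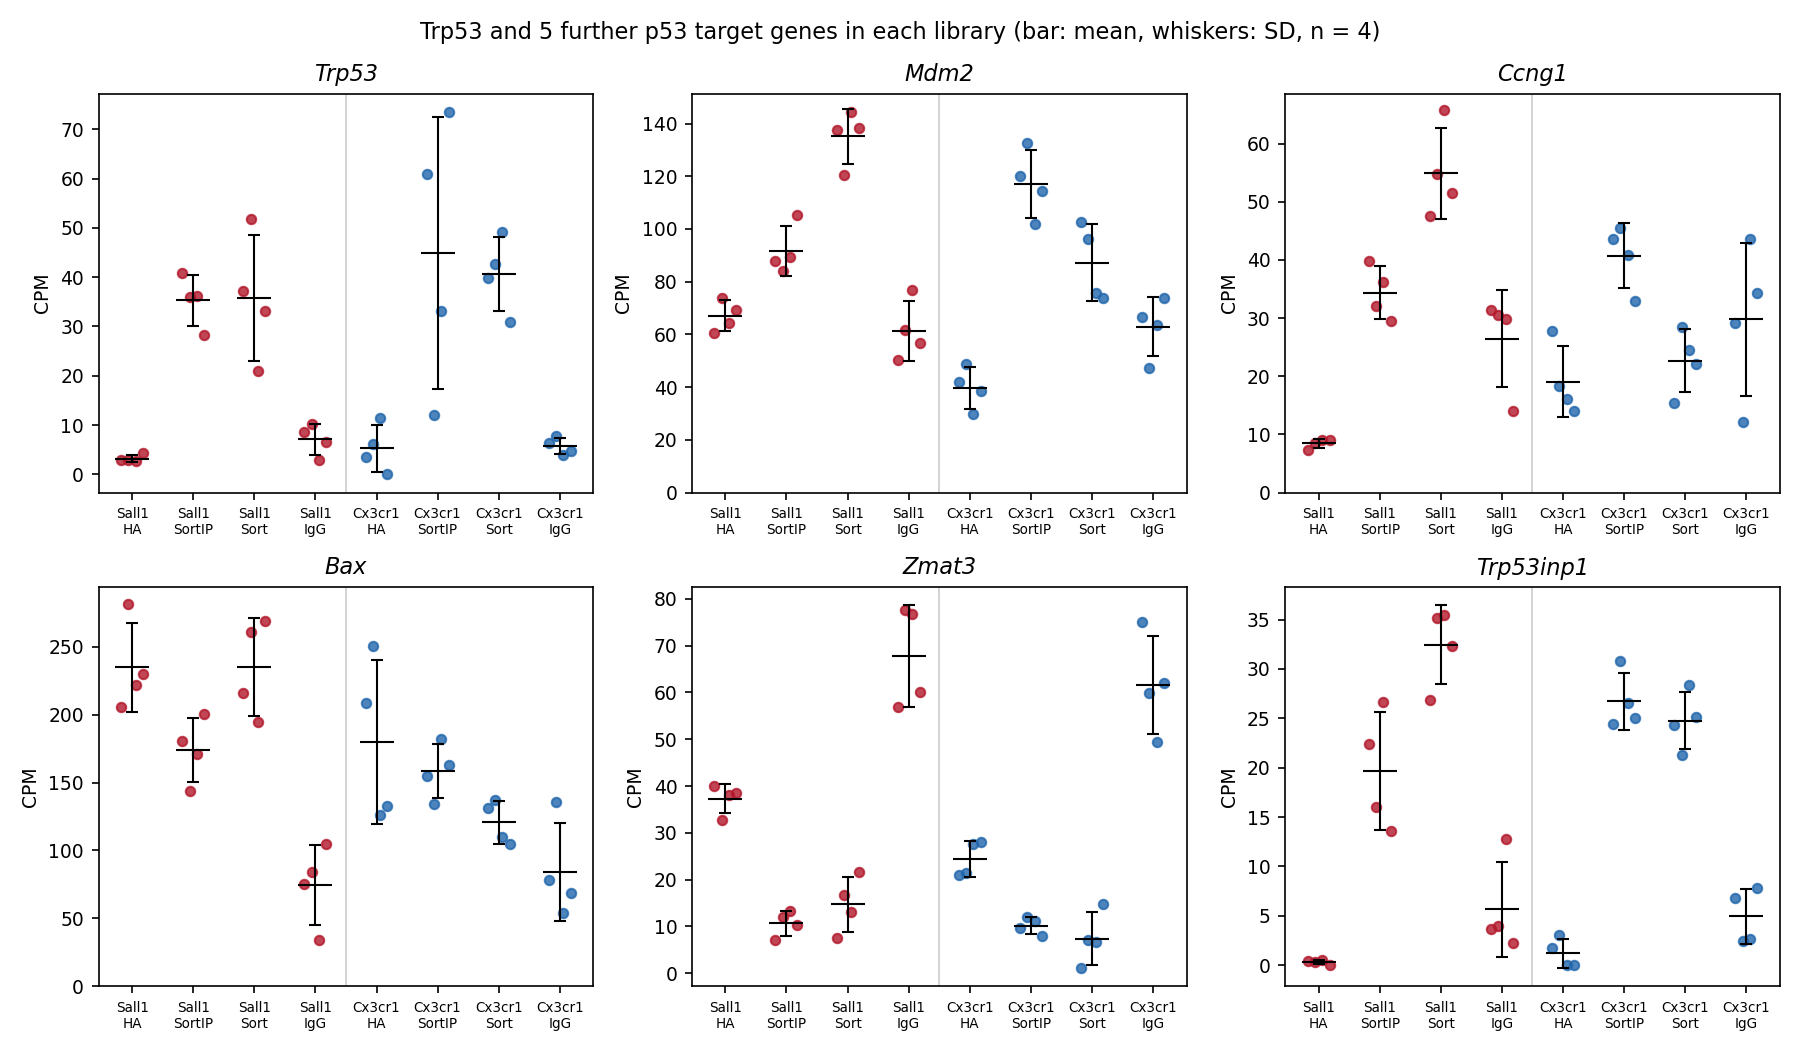
CPM of Trp53, Mdm2, Ccng1, Bax, Zmat3 and Trp53inp1 in every library (points), with mean and SD (n = 4) for each of the 8 groups. Trp53 and Trp53inp1 are high in the SortIP and Sort groups, whereas Zmat3 is highest in IgG (67.8 CPM in Sall1 IgG and 61.6 CPM in Cx3cr1 IgG).

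The direct HA precipitate and the precipitate of sorted cells carry the same tag and were compared for each gene. Their cell markers differed in the Sall1 line. Microglial markers averaged 0.556% of gene counts in Sall1 HA and 7.98% in Sall1 SortIP. For astrocytes these were 0.979% and 0.0291%, and for oligodendrocytes 1.10% and 0.0327%. How the ribosomes were isolated and which cells they came from thus cannot be told apart here. In the Sall1 line 80.2% of 10494 genes were called between HA and SortIP, in either direction. Trp53 had 2.64 to 4.28 CPM in Sall1 HA, compared with 36.1, 28.3, 40.8 and 36.0 CPM in Sall1 SortIP, and fell in HA (log2 fold change -3.28 ± 0.33, adjusted p = 1.78e-11). Trp53inp1 averaged 0.317 ± 0.227 CPM in Sall1 HA and 19.7 ± 5.95 CPM in Sall1 SortIP (log2 fold change -5.53 ± 0.52, adjusted p = 5.74e-12). The 3 counts in HA and 52 in SortIP give a ratio of 0.0157, with an exact 95% interval of 0.00314 to 0.0485 that covers counting error only. Ccng1 also fell in HA (-1.88 ± 0.28, adjusted p = 1.76e-07). Zmat3 rose in HA (2.03 ± 0.30, adjusted p = 1.29e-07), and so did Bax (0.57 ± 0.18, adjusted p = 0.00387), although with the block and a length trend Bax turned to -0.52 (adjusted p = 0.00679). Mdm2 was at -0.31 (adjusted p = 0.132), and at -0.46 (adjusted p = 0.024) with library totals alone. Cdkn1a and Phlda3, described without a test, went opposite ways: Cdkn1a averaged 143 CPM in Sall1 HA and 612 CPM in Sall1 SortIP (-1.92 ± 0.20), and Phlda3 153 CPM in Sall1 HA and 19.5 CPM in Sall1 SortIP (3.33 ± 0.28).

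In the Cx3cr1 line 70.1% of 8198 genes were called between HA and SortIP by title. Mdm2 fell to 39.7 ± 7.94 CPM in Cx3cr1 HA, against 117 ± 12.8 CPM in Cx3cr1 SortIP (log2 fold change -1.32 ± 0.23, adjusted p = 2.66e-05; by description -1.02, adjusted p = 2.2e-04). Trp53inp1 fell (-4.05 ± 0.59, adjusted p = 3.26e-06; from 2 counts in HA and 144 in SortIP, a ratio of 0.0471 with a counting interval of 0.00565 to 0.173) and Zmat3 rose (1.49 ± 0.32, adjusted p = 3.02e-04), as they did by description (-4.03, adjusted p = 1.95e-07, and 1.89, adjusted p = 9.26e-05). Ccng1 fell by title (-0.78 ± 0.29, adjusted p = 0.0231) but was at -0.06 (adjusted p = 0.887) by description, and its call was also lost without mouse 2 (-0.74), 3 (-0.66) or 4 (-0.66) of Cx3cr1 HA. Bax was at 0.42 (adjusted p = 0.0883) by title and rose by 0.70 (adjusted p = 0.00205) by description. It also passed without mouse 3 (0.58, adjusted p = 0.0245) or mouse 4 (0.55, adjusted p = 0.0327) of Cx3cr1 HA. Phlda3 averaged 38.0 CPM in Cx3cr1 HA and 0.679 CPM in Cx3cr1 SortIP (5.71 ± 0.46), and Cdkn1a 35.0 CPM in Cx3cr1 HA and 60.4 CPM in Cx3cr1 SortIP (-0.62 ± 0.33), both as a description (by description of the libraries 4.31 and -0.28). Trp53 had 3.48, 6.12, 11.5 and 0 CPM in Cx3cr1 HA, against 60.9, 12.1, 33.2 and 73.6 CPM in Cx3cr1 SortIP, which do not overlap (40.2% of the genes fitted had all 4 HA libraries below) but were not fitted. Astrocyte markers were above the SortIP level in the HA libraries of both lines (0.0747% to 0.0961% in Cx3cr1 HA, against 0.0236% to 0.0390% in Cx3cr1 SortIP). The part of such markers in these differences was not tested.

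Sorted cells were also set against the IgG precipitate, which holds homogenate RNA recovered without the tag. In the Sall1 line 78.2% of 11291 genes were called between Sort and IgG. Trp53 rose to 35.8 ± 12.7 CPM in Sall1 Sort, against 7.10 ± 3.19 CPM in Sall1 IgG (2.20 ± 0.32, adjusted p = 4.8e-06), and Trp53inp1 to 32.5 ± 4.01 CPM, against 5.66 ± 4.81 CPM (2.90 ± 0.37, adjusted p = 8.24e-07). Bax (1.59 ± 0.25, adjusted p = 1.58e-05), Mdm2 (1.16 ± 0.18, adjusted p = 7.19e-06) and Ccng1 (1.05 ± 0.26, adjusted p = 0.00126) also rose in Sall1 Sort, and Zmat3 fell (-2.20 ± 0.27, adjusted p = 4.91e-07). As a description, Cdkn1a was at 2.93 ± 0.19 and Phlda3 at -2.55 ± 0.23. The 2 genes for which the set was chosen thus lay on opposite sides of the homogenate level in Sall1 sorted cells.

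In the Cx3cr1 line 73.8% of 11180 genes were called between Sort by title and IgG. Trp53 rose to 40.6 ± 7.51 CPM in Cx3cr1 Sort, against 5.72 ± 1.64 CPM in Cx3cr1 IgG (2.87 ± 0.30, adjusted p = 3.8e-07). Trp53inp1 rose (2.39 ± 0.36, adjusted p = 1.9e-05) and Zmat3 fell (-3.07 ± 0.38, adjusted p = 2.66e-06). By description these were 2.75 (adjusted p = 1.86e-04) for Trp53, 2.18 (adjusted p = 8.25e-05) for Trp53inp1 and -2.84 (adjusted p = 1.4e-07) for Zmat3. Mdm2 was called higher (0.54 ± 0.20, adjusted p = 0.0217) but lost the call in 5 of 8 fits that left out a library: any 1 of the 4 Sort libraries or IgG mouse 1 (0.29 to 0.53). By description Mdm2 was at 0.65 (adjusted p = 0.00484). Bax was at 0.55 (adjusted p = 0.0953), at 0.65 (adjusted p = 0.00951) with the mouse as a block, at 0.68 (adjusted p = 0.0355) by description and at 0.98 (adjusted p = 1.22e-06) without mouse 2 of Cx3cr1 IgG. Ccng1 was at -0.30 (adjusted p = 0.414), at 0.22 by description and at -0.52 (adjusted p = 0.0435) without mouse 2 of Cx3cr1 IgG. Cdkn1a was at -0.29 and Phlda3 at -5.17 by title, and at -0.13 and -6.77 by description, neither tested.

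**Figure D4:**
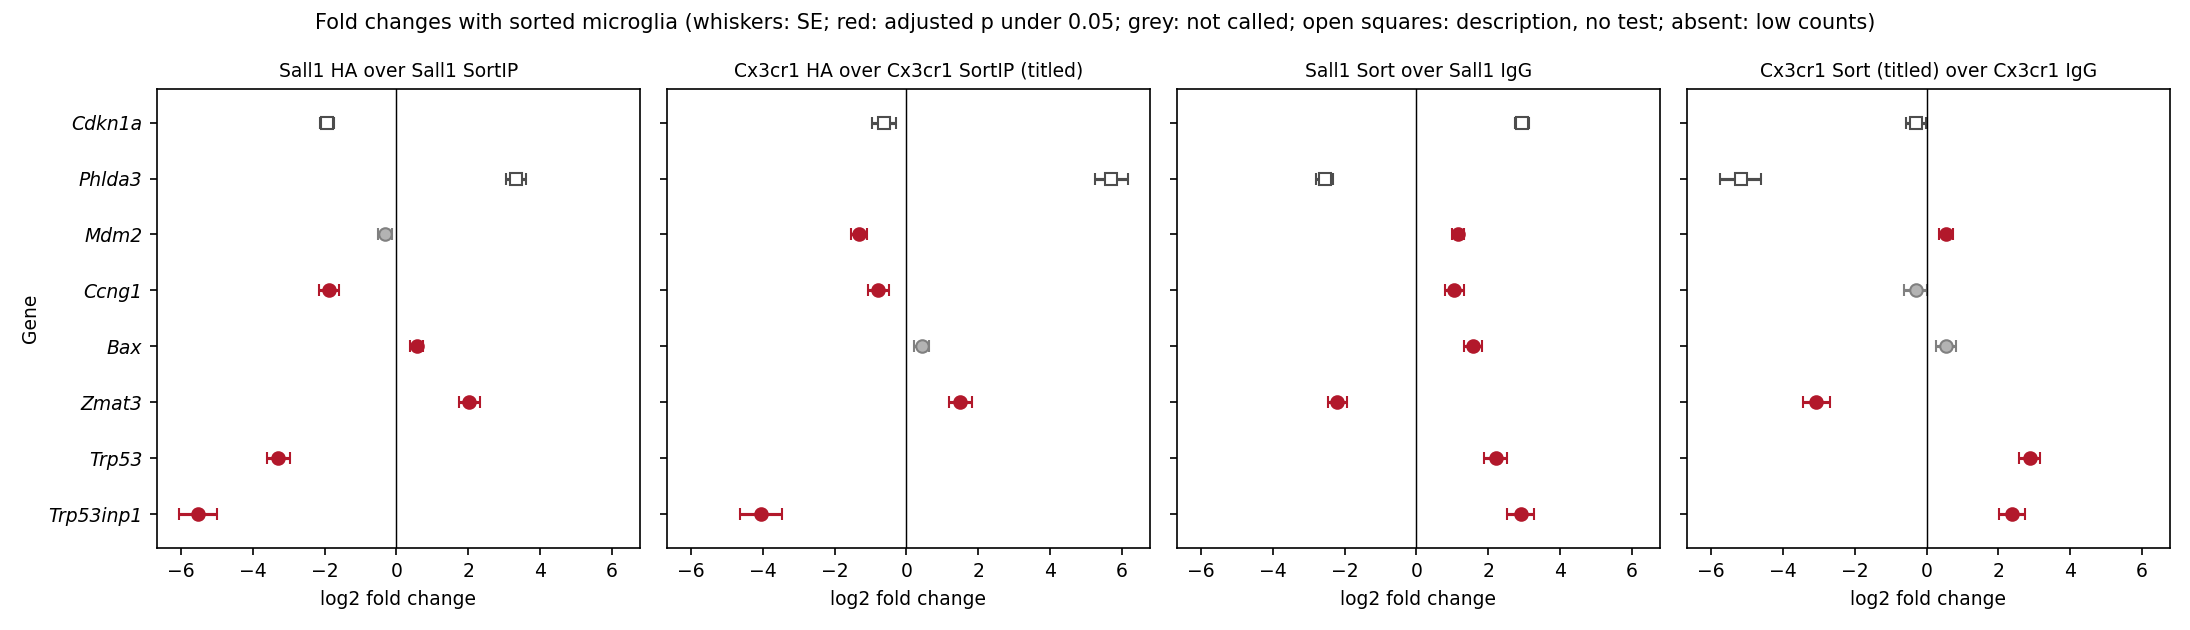
Log2 fold changes of the members with SE whiskers, for HA over SortIP and for Sort over IgG in each line; red points passed an adjusted p of 0.05, grey points did not, and open squares are given as a description. Trp53 and Trp53inp1 lie to the left in HA over SortIP where they could be fitted and to the right in Sort over IgG, and Zmat3 lies on the other side.

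Between SortIP and Sort of the same line few members passed the test. Between SortIP and Sort of the Sall1 line 10.5% of 8603 genes were called and none of the 6 members tested was called by edgeR or DESeq2, with 3 at an unadjusted p under 0.05 (Mdm2 -0.40 ± 0.17, Ccng1 -0.50 and Trp53inp1 -0.56, all lower in SortIP). With library totals alone Mdm2 was called (-0.55, adjusted p = 0.0341). In the Cx3cr1 line by title 12.8% of 8704 genes were called, among them Ccng1 alone of the members (40.7 ± 5.57 CPM in SortIP and 22.6 ± 5.43 CPM in Sort; 0.71 ± 0.22, adjusted p = 0.0398). That call was lost in DESeq2 (adjusted p = 0.0626) and without mouse 1, 3 or 4 of Cx3cr1 Sort or mouse 1, 2 or 3 of Cx3cr1 SortIP (0.57 to 0.76). Cdkn1a averaged 612 ± 116 CPM in Sall1 SortIP and 534 ± 97.7 CPM in Sall1 Sort, and 60.4 ± 25.7 CPM in Cx3cr1 SortIP and 44.6 ± 15.7 CPM in Cx3cr1 Sort. Its libraries overlapped between the 2 preparations in each line, with log2 fold changes of 0.34 ± 0.16 in the Sall1 line and 0.33 ± 0.36 in the Cx3cr1 line, given as a description.

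**Figure D5:**
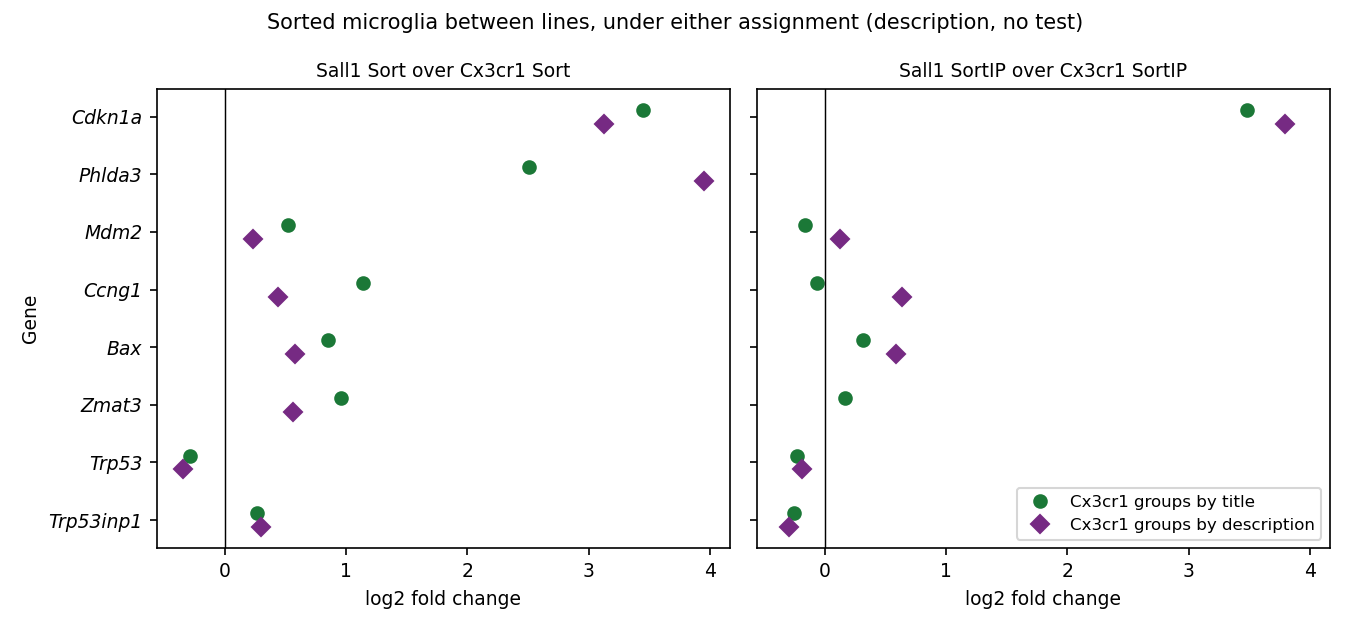
Log2 fold changes of sorted Sall1 over sorted Cx3cr1 libraries in Sort and in SortIP, with the Cx3cr1 groups taken from the titles and from the descriptions. Cdkn1a stays between 3.13 and 3.79 in all of them, whereas Ccng1 ranges from -0.06 to 1.14.

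Ordered by level, Cdkn1a was highest in Sall1 SortIP and Sall1 Sort, which overlapped. Sall1 HA followed, apart from its neighbours on either side, and then came Sall1 IgG and the 4 Cx3cr1 groups, of which each overlapped the next. Phlda3 ran in another order, with Sall1 HA first (overlapping Cx3cr1 IgG only through IgG mouse 2), then the IgG groups, Cx3cr1 HA, Sall1 SortIP and Sort, and the sorted Cx3cr1 groups last. Per exon length, Cdkn1a (275 ± 50.4 CPM per kb) and Bax (273 ± 41.6 CPM per kb) were the most abundant members in Sall1 Sort, followed by Mdm2 (43.8 CPM per kb) and Trp53 (19.3 CPM per kb). In Sall1 HA the order per length was Bax (273 CPM per kb), Phlda3 (105 CPM per kb) and Cdkn1a (73.9 CPM per kb), and in Cx3cr1 HA it was Bax (209 CPM per kb), Phlda3 (26.0 CPM per kb) and Cdkn1a (18.04 CPM per kb).

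Another 35 p53 targets were listed to see whether the pathway moved as one. Between Sall1 HA and Cx3cr1 HA, 21 could be tested, of which 5 were called higher and 5 lower, where 27.2% of all genes were called higher and 25.7% lower. Their median log2 fold change was -0.06, against 0.05 over all genes. Among those higher were Sulf2, a sulfatase of the cell surface (50.6 ± 8.34 CPM in Sall1 HA and 11.04 ± 7.79 CPM in Cx3cr1 HA; 1.85 ± 0.34, adjusted p = 4.72e-05), and Gadd45a, a growth arrest and DNA damage gene (1.72 ± 0.44, adjusted p = 0.00176). Among those lower were Tap1, a peptide transporter of antigen presentation (9.57 ± 0.541 CPM in Sall1 HA and 70.1 ± 15.8 CPM in Cx3cr1 HA; -3.08 ± 0.25, adjusted p = 7.28e-11), and the phosphatase gene Ptp4a3 (-1.98 ± 0.22, adjusted p = 3.99e-08). In the HA over IgG interaction 27 were tested, 2 higher and 5 lower, where 32.2% of all genes were called and 18.5% were higher.

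In the sorted cells by title, 18 of the 35 could be tested between the lines. In Sort by title, 3 were called higher and 1 lower (median 0.21, all genes 0.01), and in SortIP 2 were higher and 0 lower (median -0.08, all genes -0.01), where 23.9% and 10.9% of all genes were called. Ercc5, a DNA repair nuclease, was higher in Sort (88.9 ± 19.9 CPM in Sall1 Sort and 42.2 ± 3.47 CPM in Cx3cr1 Sort), and Ddit4, an inhibitor of mTORC1, was lower (75.8 ± 36.7 CPM in Sall1 Sort and 185 ± 52.6 CPM in Cx3cr1 Sort; -1.40 ± 0.40, adjusted p = 0.0437). Ephx1, an epoxide hydrolase, was higher in SortIP by title (54.6 ± 3.02 CPM in Sall1 SortIP and 26.1 ± 5.53 CPM in Cx3cr1 SortIP; 1.23 ± 0.22, adjusted p = 0.00157). By description, 0 of 20 targets tested were called in Sort and 0 of 19 in SortIP, where 1.49% (Sort) and 1.11% (SortIP) of all genes were called. Ercc5 in Sort was then at 0.26 (adjusted p = 0.768), Ddit4 in Sort at -0.61 (adjusted p = 0.744) and Ephx1 in SortIP at 0.37 (adjusted p = 0.686).

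Over IgG, 7 of 22 targets rose and 4 fell in Cx3cr1 HA, and 9 of 27 rose and 4 fell in Sall1 HA, where 64.5% (Cx3cr1) and 71.3% (Sall1) of all genes were called in either direction. Bbc3, which encodes the death-promoting protein Puma, rose in Cx3cr1 HA (52.6 ± 21.7 CPM, against 13.5 ± 5.58 CPM in Cx3cr1 IgG; 2.32 ± 0.37, adjusted p = 4.92e-05), and Siva1, a death-promoting adaptor, rose in Sall1 HA (92.4 ± 1.90 CPM, against 34.8 ± 7.48 CPM in Sall1 IgG; 1.83 ± 0.18, adjusted p = 7.02e-08). Sorted cells against IgG gave 13 higher and 10 lower of 26 in the Sall1 line and 13 higher and 10 lower of 25 in the Cx3cr1 line by title, where 78.2% (Sall1) and 73.8% (Cx3cr1) of all genes were called. By description the Cx3cr1 line gave 9 higher and 10 lower of 26. Btg2, an antiproliferative gene, rose in Cx3cr1 Sort (487 ± 170 CPM, against 28.0 ± 6.78 CPM in Cx3cr1 IgG; 4.17 ± 0.30, adjusted p = 4.37e-09; by description 4.36, adjusted p = 3.13e-06). The neuronal gene Zfp365 fell in Sall1 Sort (3.21 ± 2.18 CPM, against 301 ± 119 CPM in Sall1 IgG; -6.48 ± 0.44, adjusted p = 1.64e-09).

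Genes of the cell cycle, which p21 restrains, were listed as well. Of 14 cyclins, kinases and related genes, 7 were tested between the HA precipitates: Ccnd2 was higher in Sall1 HA (77.2 ± 17.7 CPM in Sall1 HA and 21.5 ± 6.96 CPM in Cx3cr1 HA; 1.59 ± 0.28, adjusted p = 2.81e-05), and Ccnd1 was lower (72.1 ± 9.31 CPM in Sall1 HA and 228 ± 33.6 CPM in Cx3cr1 HA; -1.84 ± 0.18, adjusted p = 3.45e-09). The other 5 were not called, where 52.9% of all genes were. In sorted cells by title 4 of 7 tested were higher in Sall1 Sort and 2 of 8 in Sall1 SortIP, where 23.9% (Sort) and 10.9% (SortIP) of all genes were called in either direction. By description 1 of 8 was higher in Sort (Cdk1) and 1 of 7 in SortIP (Ccnd1), where 1.49% (Sort) and 1.11% (SortIP) of all genes were called. Of 10 proliferation genes, 2 were tested in Sort by title and 3 in SortIP. Top2a, the topoisomerase of dividing cells, was higher in Sort (27.8 ± 3.91 CPM in Sall1 Sort and 5.27 ± 0.664 CPM in Cx3cr1 Sort; 2.28 ± 0.31, adjusted p = 9.11e-06; by description 1.55, adjusted p = 0.0049), and Mcm5, of the replication helicase, was higher in SortIP (29.3 ± 3.39 CPM in Sall1 SortIP and 12.3 ± 2.87 CPM in Cx3cr1 SortIP; 1.41 ± 0.29, adjusted p = 0.00365), a call that did not hold by description (0.98, adjusted p = 0.198). Cdkn1b, which encodes the related inhibitor p27, averaged 3.26 ± 1.73 CPM in Sall1 HA and 5.95 ± 4.22 CPM in Cx3cr1 HA, 35.5 ± 11.7 CPM in Sall1 SortIP and 48.4 ± 4.52 CPM in Cx3cr1 SortIP, and 50.0 ± 5.98 CPM in Sall1 Sort and 33.4 ± 9.46 CPM in Cx3cr1 Sort, with the sorted Cx3cr1 groups by title. By description its log2 fold change between the lines was 0.045 (adjusted p = 0.973) in Sort and 0.018 (adjusted p = 0.996) in SortIP. Of 10 regulators of p53, Mdm4 went opposite ways by title, at 1.58 ± 0.19 in Sort and -1.26 ± 0.19 in SortIP between the lines, as its levels above already showed. By description it was at 0.11 (adjusted p = 0.864) in Sort and 0.20 (adjusted p = 0.879) in SortIP.

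The genes whose level followed Cdkn1a most closely over the 32 libraries were Tmem52 (Pearson's r 0.77), Tmem261 (0.68), Axl (0.66), Pxdc1 (0.66) and Pld2 (0.65), among 7535 genes. These are values across libraries that share mice, preparations and depth, and are given as a description. Axl, a receptor kinase used in the uptake of dying cells, averaged 187 CPM in Sall1 SortIP and 206 CPM in Sall1 Sort, against 61.6 CPM in Cx3cr1 SortIP and 65.8 CPM in Cx3cr1 Sort. Tmem52 averaged 107 CPM in Sall1 SortIP and 118 CPM in Sall1 Sort, against 19.7 CPM in Cx3cr1 SortIP and 18.5 CPM in Cx3cr1 Sort. No other p53 member was among these 5, and members with a mean log2 CPM under 4 could not be. With Cdkn1a, Mdm2 had an r of 0.53, Sesn2 0.46, Bax 0.43, Trp53 0.30, Trp53inp1 0.29, Ccng1 0.28, Phlda3 0.12, Eda2r -0.13 and Zmat3 -0.17.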

How the data were processed

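The authors deposited 1 table of raw exon counts per gene, on mm9. HISAT 0.1.5 and HOMER are named in the submitters' processing notes; no source used here says whether counting used strand. All else was computed from these counts: CPM from library totals, and edgeR 4.0.16 (R 4.3.3) quasi-likelihood tests with TMM scaling, filterByExpr with a minimum count of 10, and Benjamini-Hochberg adjustment over all genes tested (threshold 0.05). Each comparison was fitted on the libraries of its own groups, and the fit was checked on simulated counts. Simulated log2 changes of size 1 were recovered for 26.9% of genes in Cx3cr1 HA over IgG. In Sall1 HA over Cx3cr1 HA this was 66.3%, and in Sall1 SortIP over Sort 73.2%. A missing call in Cx3cr1 HA over IgG thus does not show that a gene is unchanged. Fold changes are TMM-scaled, so they differ from ratios of CPM. DESeq2 1.42.0, other scalings, other filters, a mouse block, a length trend, Cx3cr1 groups by description, sums per mouse and left-out libraries were alternatives.

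The p53 members and all gene lists were chosen with earlier results of these data known. Beyond the 10 members, the text names the 3 higher and 3 lower pathway genes with the smallest adjusted p in a comparison, or some of them, and the 5 genes most like Cdkn1a; further pathway values were chosen after they were seen. The series design divides each brain into 4 samples, so libraries with 1 number in a line share a mouse. Deviations from group means correlated with a median r of 0.058 over 48 same-mouse pairs and -0.021 over 144 others. Sequences are from RefSeq tables.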

Additional observations from a re-analysis of the deposited data

Results flagged for a closer look

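The HA over IgG change differed between the lines for 3 of the 7 members tested, by the interaction test, in which 32.2% of all genes were called: Cdkn1a (1.74, higher in the Sall1 line), Phlda3 (1.99) and Mdm2 (0.78), the last with the limits given above. By title, 2 members moved in opposite directions in all 4 mice of each line between SortIP and Sort, a difference that was not tested. The mean SortIP minus Sort difference of log2(CPM + 1) for Ccng1 was -0.66 in the Sall1 line and 0.84 in the Cx3cr1 line (Sall1 minus Cx3cr1 -1.50), and for Mdm2 it was -0.56 in the Sall1 line and 0.43 in the Cx3cr1 line (Sall1 minus Cx3cr1 -0.99). Taking the Cx3cr1 groups from the descriptions turns the Cx3cr1 sign to that of the Sall1 line.

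Single libraries stood apart from the other 3 of their group in 6 of the 73 member and group pairs examined, and chance flags about 1 in 20. Ccng1 was at 14.1 CPM in Sall1 IgG mouse 9 (others 29.8 to 31.5 CPM). Trp53inp1 was at 12.8 CPM in Sall1 IgG mouse 7 (others 2.22 to 3.96 CPM). Phlda3 was at 125 CPM in Cx3cr1 IgG mouse 2 (others 55.1 to 58.3 CPM). The other 3 rest on a few counts: Sesn2 at 2.29 CPM in Cx3cr1 HA mouse 3 (others 0) and at 0 CPM in Cx3cr1 IgG mouse 1 (others 1.62 to 1.79 CPM), and Eda2r at 0.449 CPM in Cx3cr1 IgG mouse 3 (others 0).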

How the results depend on the processing

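Of the members' fold changes under settings other than leaving out a library, 596 were counted as unchanged, 15 lost a call, 18 gained one, 14 changed sign and 16 untested values moved. When a library was left out these were 738, 34, 7, 14 and 3. For untested members other than Cdkn1a and Phlda3, only the size of a shift was judged, so their changes of sign are not in these counts. Genes called between the lines in Sort (2074) became 138 by description, 266 with sums per mouse and 1266 with all 8 groups in 1 fit, and in SortIP (931) 92 by description. In IgG between lines the 1 gene became 2 with DESeq2 and 2 with all groups in 1 fit; SortIP over Sort went to 537 (Cx3cr1, 1115) and 538 (Sall1, 906) with all groups in 1 fit. Members called in Cx3cr1 HA over IgG were 5 with library totals and 4 with all groups, against 2; in Cx3cr1 SortIP over Sort 0 with DESeq2 and 0 with all groups, against 1; and in Sall1 SortIP over Sort 1 with library totals, against 0.

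Signs turned with a length trend for Bax in Sall1 over Cx3cr1 HA (-0.21); with the replicate block and a length trend for Mdm2 (0.020), Ccng1 (0.26) and Zmat3 (0.27) in Cx3cr1 HA over IgG, Zmat3 in Sall1 HA over IgG (0.93), Bax in the interaction (-0.036) and in HA over SortIP (Cx3cr1 -0.18, Sall1 -0.52), Trp53 in Cx3cr1 SortIP over Sort (-0.017; block alone -0.090) and Ccng1 in Cx3cr1 Sort over IgG (0.14; by description 0.22); and with library totals for Trp53inp1 in Cx3cr1 SortIP over Sort (0.089) and Trp53 in Sall1 SortIP over Sort (-0.041). Beyond the calls named above the replicate block changed no call; Cdkn1a in Sall1 HA over IgG was 1.38 with it. The signs listed here are of tested values. Among the untested ones, Ccng1 in SortIP between the lines also changed sign with the groups by description, as given above. The causes were not tested.

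With single libraries left out, genes called ranged over 472 to 1039 (SortIP between lines), 0 to 1 (IgG), 456 to 1386 (Cx3cr1 SortIP over Sort) and 393 to 785 (Sall1 SortIP over Sort), and members called over 0 to 1 in Cx3cr1 SortIP over Sort. Tested fold changes that crossed 0 were, between IgG precipitates, Phlda3 (-0.19 to 0.35), Bax (-0.35 to 0.21), Ccng1 (-0.46 to 0.073) and Mdm2 (-0.19 to 0.0092), then Ccng1 in Cx3cr1 HA over IgG (-0.47 to 0.022), Trp53inp1 (-0.11 to 0.053) and Trp53 (-0.24 to 0.30) in Cx3cr1 SortIP over Sort, and Trp53 in Sall1 SortIP over Sort (-0.055 to 0.30). Among untested values, Ccng1 (-0.17 to 0.0071) and Trp53 (-0.48 to 0.067) in SortIP between the lines by title crossed 0 as well. Scaling by library totals moved the calls from 1036 higher and 1038 lower to 1443 and 732 (Sort between lines), from 495 and 436 to 256 and 915 (SortIP between lines), from 2862 and 3603 to 2126 and 4697 (Cx3cr1 HA over IgG), from 4064 and 4166 to 2887 and 5411 (Sall1 HA over IgG), from 553 and 562 to 992 and 302 (Cx3cr1 SortIP over Sort) and from 469 and 437 to 219 and 798 (Sall1 SortIP over Sort). Depth limits Phlda3 in sorted cells and Trp53, Trp53inp1, Sesn2 and Eda2r in HA. In Cx3cr1 HA few counts also limit Cdkn1a (55 over the group), Phlda3 (63) and Mdm2 (64).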
